A study of Mus musculus with 6 samples.

Results

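Calcium handling and excitation-contraction coupling genes were examined in mouse ventricles at embryonic day 17.5. The members were 36 genes, chosen by symbol from a list that covers surface calcium channels, calcium release and uptake by the sarcoplasmic reticulum, the junctions between the membranes, calmodulin kinases and the mitochondrial uniporter. All 36 were among the 19245 gene symbols of the deposited table, and all 36 passed the filter on low counts that left 14290 genes. Both groups were C57BL/6 mice that carried floxed ERRa/g alleles, the genes Esrra and Esrrg of the estrogen-related receptors alpha and gamma. The control group (3 libraries) was Nkx2.5-Cre negative and is called wild type in the labels, although its alleles were floxed. The group labelled knockout (3 libraries) was Nkx2.5-Cre positive. Nkx2.5-Cre is active in cardiac progenitors, so its reach is not limited to cardiomyocytes, and an effect of Cre itself cannot be told apart from that of the deletions. Each library pooled the ventricles of 2 hearts. Nothing in the labels ties the libraries to separate litters, and the p-values measure the spread between these pools.

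In cardiomyocytes, calcium that enters through L-type channels at the cell surface opens ryanodine receptors in the sarcoplasmic reticulum, and the released calcium activates the sarcomere. Relaxation follows when the pump SERCA returns calcium to the reticulum, under the brake of phospholamban, and when the sodium-calcium exchanger carries calcium out of the cell. Junctophilins hold the surface membrane close to the reticulum, calsequestrin buffers the store, and in the fetal heart T-type channels and inositol trisphosphate (IP3) receptors are also expressed.

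Estimated counts per library ran from 12807221 to 32663838, with labelled knockout replicate 1 the deepest. Levels are given as CPM, counts relative to each library's total of annotated counts, scaled between libraries by TMM. Esrra stood at 82.0, 68.9 and 76.4 CPM in control libraries against 41.1, 44.0 and 43.7 CPM in labelled knockout libraries. Esrrg stood at 81.9, 79.5 and 83.7 CPM in control libraries against 109.8, 117 and 120.2 CPM in labelled knockout libraries, which goes against the label. The counts include exons outside the deleted part, so a direction given here refers to the labels and not to a measured loss of receptor. Nkx2-5, the gene that names the Cre driver, stood at 74.2, 66.5 and 66.7 CPM in control libraries. In labelled knockout libraries it stood at 49.9, 53.4 and 57.8 CPM (log2 fold change -0.37, adjusted p 0.000446 by edgeR). The cause of this difference was not tested. All 7 ventricular cardiomyocyte markers were detected in each group, which fits the labelled tissue. Their summed level was 124642 to 129318 CPM in the controls and 96239 to 108297 CPM in the labelled knockouts. Of these 7, 6 were called lower and none higher, with a median log2 fold change of -0.52. Most of the sum was Ttn, with a control mean of 92705 CPM and a log2 fold change of -0.21. Fibroblast markers summed to 5163 to 5457 CPM in the controls and 7251 to 8420 CPM in the labelled knockouts, with 7 of 7 called higher. Atrial markers summed to 1047 to 1130 and 2878 to 3481 CPM, with 5 of 7 called higher, and smooth muscle markers to 1658 to 1741 and 3458 to 3708 CPM, with 3 of 6 higher and 1 lower. No marker of these lists was at 0 in all libraries. Of all genes tested, 22.4% were called higher and 22.0% lower. Other marker lists were mixed: endothelial 2 of 6 higher and 3 lower, conduction system 1 of 6 higher and 2 lower. Macrophage markers had 2 of 6 higher and 1 lower, and skeletal muscle markers 4 of 5 higher and 1 lower. Neuron and neural crest markers had 1 of 4 higher and 1 lower, and of 6 erythroid markers none was called. Y-linked genes were near 0 in control replicates 1 and 3, and Xist was near 0 in labelled knockout replicate 1. The part of the marker differences in the results below was not tested, and in bulk tissue fewer cells of a type and less RNA per cell cannot be told apart. The Y-linked and Xist differences were taken up only by the alternative fits given below.

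Of the 36 calcium genes, 13 were lower and 4 higher in the labelled knockouts at an adjusted p under 0.05 (edgeR quasi-likelihood test, Benjamini-Hochberg over all genes). The call rate of 47.2% was near the background, since 44.4% of all genes tested were called, 22.0% lower and 22.4% higher. Split by direction, 36.1% of the members were lower and 11.1% higher, and the median log2 fold change was -0.09 for the members and 0.01 for all genes tested. A fold of at least 2 was reached by 2 members, Cacna1h and S100a1, against 5.85% of all genes. The groups did not overlap for 20 members, against a background of 53.7% of genes. The deposited RPKM values (reads scaled by transcript length and library total) are scaled instead to all assigned reads, including intronic and intergenic ones, whose share differed between libraries. On that scale the median of all genes moved to 0.16, and 14 members were higher and 7 lower, against 38.6% and 11.8% of all genes. The 7 that were lower on both scales were Atp2a2, Cacna1h, Pln, Ryr2, S100a1, Srl and Tmem38a, and all 4 called higher were also higher on that scale. By DESeq2, 4 members were higher and 12 lower, against 18.2% and 18.6% of all genes. With Y-linked RNA as a covariate 2 were higher and 8 lower, against 11.5% and 12.4%, and without the 3 libraries near 0 in Y-linked genes or Xist 4 were higher and 10 lower, against 12.4% and 12.9%.

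**Figure D1:**
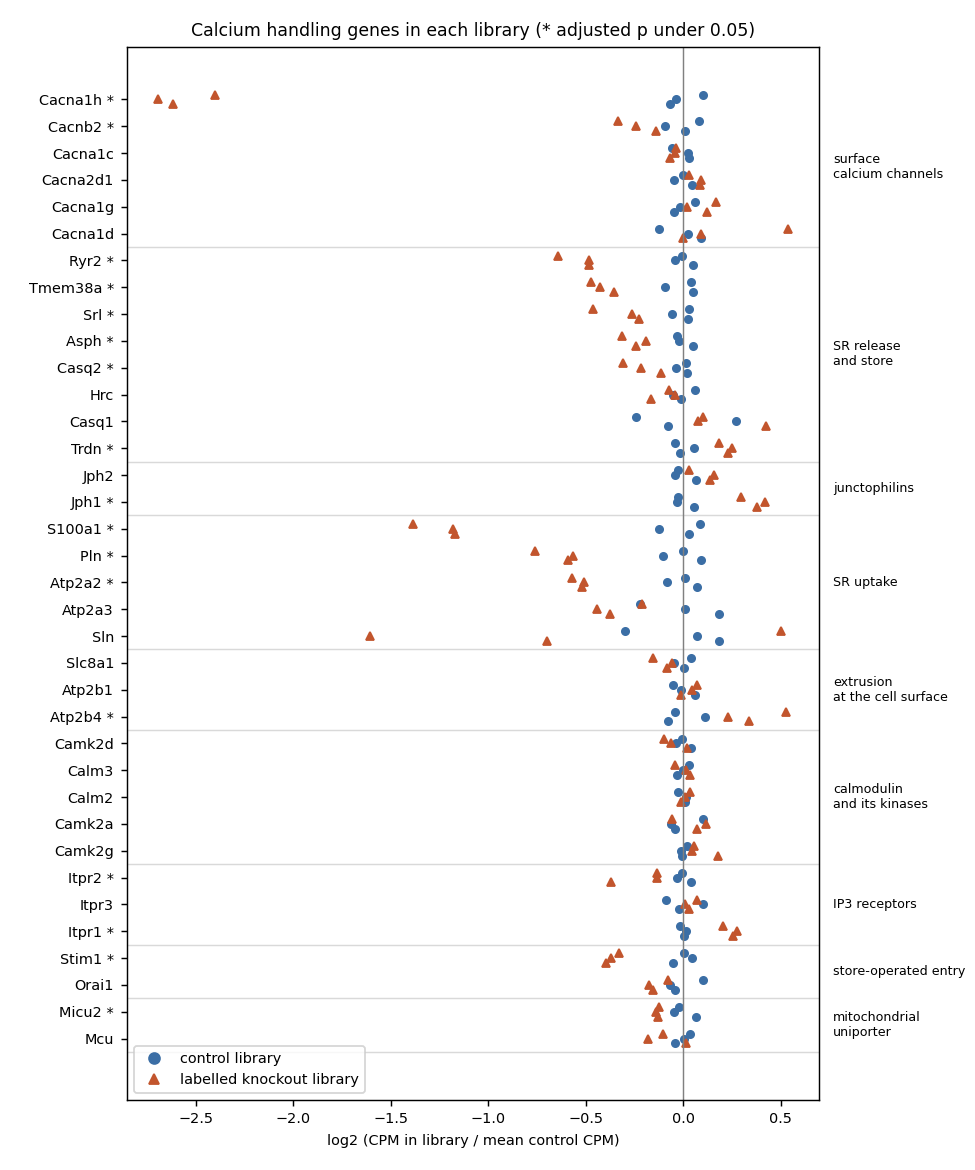
Level of each of the 36 calcium handling genes in each library as log2 of its TMM-scaled CPM over the control mean, grouped by role; circles are the 3 control libraries, triangles the 3 labelled knockout libraries, and an asterisk marks an adjusted p under 0.05. Cacna1h and S100a1 lie farthest to the left, the 5 genes of calmodulin and its kinases stay near 0, and the 3 labelled knockout points of Sln lie on both sides of the controls.

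Per length, Pln had the highest control level of the members, at 335 ± 24.0 RPKM (SD, n = 3), followed by Atp2a2 at 223 ± 13.2, Casq2 at 135 ± 3.44, Slc8a1 at 91.3 ± 1.49, Srl at 88.9 ± 2.78 and Ryr2 at 56.4 ± 2.44 RPKM. Slc8a1 and Srl, neighbours in this order, lay close together in the controls. Slc8a1 was above Srl in every library, and their difference was not tested. The first 5 ranks were the same in the labelled knockouts, where Pln stood at 239 ± 7.97 and Atp2a2 at 172 ± 4.07 RPKM. S100a1 went from rank 8 to rank 12 and Cacna1h from rank 28 to rank 35. Atp2a3, the SERCA gene of non-muscle cells, was the lowest in both groups, at 0.393 ± 0.0631 and 0.343 ± 0.0445 RPKM.

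**Figure D2:**
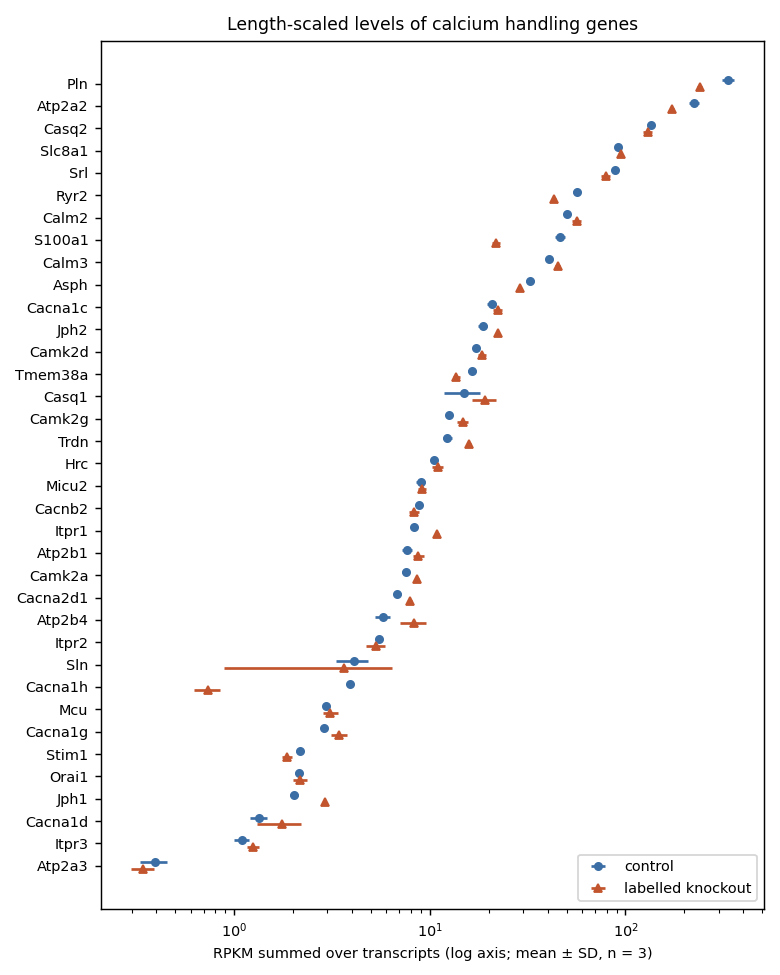
Deposited RPKM summed over the transcripts of each calcium handling gene, on a log axis, ordered by the control mean; points are means and bars SD (n = 3 libraries per group). Pln, Atp2a2, Casq2, Slc8a1 and Srl hold the first 5 ranks in both groups, and Cacna1h drops from 3.91 to 0.736 RPKM.

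Among the 6 surface channel genes, 2 were lower and none higher. The counts of this and the following groups stand beside 22.0% lower and 22.4% higher among all genes tested. Cacna1h encodes the pore of a T-type channel, which opens at low voltage and is abundant in the fetal heart (mm10 chromosome 17, 25374287 to 25433783). Its level was 96.1, 87.4 and 85.6 CPM in control libraries against 17.0, 13.9 and 14.6 CPM in labelled knockout libraries. Every labelled knockout library was far below every control. The mean fell 5.83-fold (log2 fold change -2.54, SE 0.0758, adjusted p 8.82e-11 by edgeR). Both of its listed transcripts were lower, by -2.51 and -2.58 on the log2 scale. The other T-type pore, Cacna1g, stood at 65.9 ± 2.49 CPM in the controls and 70.8 ± 3.75 CPM in the labelled knockouts (SD, n = 3 per group), and the groups overlapped (adjusted p 0.115 by edgeR; 0.0428 without labelled knockout replicate 2).

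The auxiliary beta subunit gene Cacnb2 was at 102, 90.5 and 97.2 CPM in control libraries against 76.5, 81.8 and 87.7 CPM in labelled knockout libraries. The groups did not overlap, but the lowest control and the highest labelled knockout lay close together. Its log2 fold change was -0.24 (SE 0.0588; adjusted p 0.00486 by edgeR). The call was lost with Y-linked RNA as a covariate (-0.11, adjusted p 0.389), without the 3 libraries near 0 in Y-linked genes or Xist (-0.09, 0.424), on the scale of all assigned reads (-0.09, 0.273) and with only the most abundant transcript of each gene (-0.15, 0.166). The pore of the main cardiac L-type channel, Cacna1c, was at 743, 785 and 789 CPM in control libraries against 752, 749.5 and 737 CPM in labelled knockout libraries. These ranges overlapped, and the log2 fold change of -0.05 (SE 0.0431) did not pass (adjusted p 0.389 by edgeR). Cacna2d1, the alpha2-delta subunit gene, and Cacna1d, a second L-type pore, did not pass either, with log2 fold changes of 0.07 and 0.25. Cacna1d passed without labelled knockout replicate 3 (0.35, adjusted p 0.0205 by edgeR) and went to 0.05 without labelled knockout replicate 1.

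Among the 8 genes of calcium release and the store, 5 were lower and 1 higher, against 22.0% and 22.4% of all genes. Ryr2, the cardiac ryanodine receptor through which the reticulum releases calcium (mm10 chromosome 13, 11553103 to 12106945), stood at 2630.1, 2568 and 2738 CPM in control libraries against 1694, 1891 and 1891 CPM in labelled knockout libraries. All labelled knockout libraries were below all controls. The mean was 1.45-fold lower, with a log2 fold change of -0.54 (SE 0.0538; adjusted p 4.24e-06 by edgeR). Tmem38a, a cation channel of the reticulum that carries counter-ions during release, was at 98.8, 90.1 and 99.4 CPM and at 69.3, 71.5 and 75.1 CPM in that order of groups. It was lower by a log2 fold change of -0.42 (SE 0.0515; adjusted p 2.51e-05 by edgeR), with no overlap.

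Asph, whose gene makes junctin and junctate of the reticulum as well as an aspartyl hydroxylase, was at 311, 314 and 329 CPM in control libraries against 256, 279 and 269 CPM in labelled knockout libraries. Srl, the luminal calcium-binding protein sarcalumenin, was at 1328, 1248 and 1324 CPM and at 944, 1083 and 1110.0 CPM. Both were lower without overlap, by -0.25 (SE 0.0434; adjusted p 0.000449) and -0.31 (SE 0.0603; adjusted p 0.000957) on the log2 scale by edgeR. The call of Asph was lost on the scale of all assigned reads (-0.10, adjusted p 0.146) and with only the most abundant transcript of each gene (-0.13, 0.211), and that of Srl with the Y-linked covariate (-0.22, 0.0847). Casq2, the cardiac calsequestrin that buffers calcium in the store, was at 959, 927 and 964 CPM in control libraries against 767, 819 and 879 CPM in labelled knockout libraries. It was lower by -0.21 (SE 0.0526; adjusted p 0.00586 by edgeR), and this call was lost with the Y-linked level as a covariate (0.196), without the 3 libraries near 0 in Y-linked genes or Xist (0.152) and on the scale of all assigned reads (0.429).

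Triadin, encoded by Trdn, anchors calsequestrin to the ryanodine receptor and was the release gene that rose. It was at 151, 161 and 153 CPM in control libraries against 176, 185 and 182 CPM in labelled knockout libraries, with each labelled knockout above each control. The log2 fold change was 0.22 (SE 0.0397; adjusted p 0.00053 by edgeR). It was 0.17 and did not pass (0.0712) once Y-linked RNA was a covariate. Hrc, another luminal calcium-binding protein, and Casq1, the calsequestrin of fast skeletal muscle, did not pass. Casq1 ran from 66.1 to 94.2 CPM in the controls and from 82.3 to 105 CPM among labelled knockouts. The log2 difference of 0.22 became 0.37 (adjusted p 0.0109 by edgeR) without control replicate 2, 0.09 without labelled knockout replicate 3 and 0.11 without control replicate 1.

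Junctophilins were not lower. Jph1, the form known mainly from skeletal muscle, was at 26.8, 26.7 and 28.3 CPM in control libraries against 33.4, 36.4 and 35.5 CPM in labelled knockout libraries. All 3 labelled knockouts were above all controls, and the log2 fold change was 0.36 (SE 0.0601; adjusted p 0.00035 by edgeR). Jph2, the main cardiac form, was at 215, 213 and 229 CPM and at 224, 244 and 241 CPM. These groups overlapped, and its log2 fold change of 0.11 (SE 0.0452) did not pass (adjusted p 0.0726 by edgeR). It passed without control replicate 3 (adjusted p 0.0427) or labelled knockout replicate 1 (0.0183).

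In the group of calcium uptake, 3 of 5 genes were lower and none higher, against 22.0% and 22.4% of all genes. S100a1, a small calcium-binding protein known to interact with SERCA and the ryanodine receptor (mm10 chromosome 3, 90511034 to 90514330), was at 85.0, 73.3 and 81.7 CPM in control libraries against 30.6, 35.2 and 35.6 CPM in labelled knockout libraries. The groups were far apart. The mean fell 2.39-fold, with a log2 fold change of -1.26 (SE 0.0713; adjusted p 1.93e-08 by edgeR). Pln, phospholamban, the inhibitor of SERCA (mm10 chromosome 10, 53337686 to 53345999), was at 2219, 2068 and 2368 CPM in control libraries against 1307, 1502 and 1475 CPM in labelled knockout libraries. It was lower in every labelled knockout library, by a log2 fold change of -0.64 (SE 0.0635; adjusted p 4.10e-06 by edgeR). Both listed Pln transcripts, which both encode 52 residues, were lower, by -0.67 and -0.47 on the log2 scale.

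Atp2a2 encodes SERCA2, the pump itself (mm10 chromosome 5, 122453513 to 122502225). It was at 2789.8, 2614 and 2912 CPM in control libraries against 1869, 1948 and 1931 CPM in labelled knockout libraries, with no overlap. The mean was 1.45-fold lower, with a log2 fold change of -0.53 (SE 0.0503; adjusted p 2.43e-06 by edgeR). The pump gene and the gene of its inhibitor were thus both lower.

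Sln encodes sarcolipin, a SERCA inhibitor known mainly from atrium and skeletal muscle. It was low and uneven, at 4.81, 6.21 and 6.71 CPM in control libraries against 8.38, 1.94 and 3.65 CPM in labelled knockout libraries. Labelled knockout replicate 1 was above all controls and the other two below them. The log2 fold change was -0.19 (SE 0.354; adjusted p 0.696 by edgeR). Without labelled knockout replicate 1 it was -1.03 (adjusted p 0.00356), and without the 3 libraries near 0 in Y-linked genes or Xist it was -1.10 (0.0242). Atp2a3 did not pass, at 5.00 ± 0.700 and 3.95 ± 0.332 CPM (SD, n = 3 per group; log2 fold change -0.32).

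**Figure D3:**
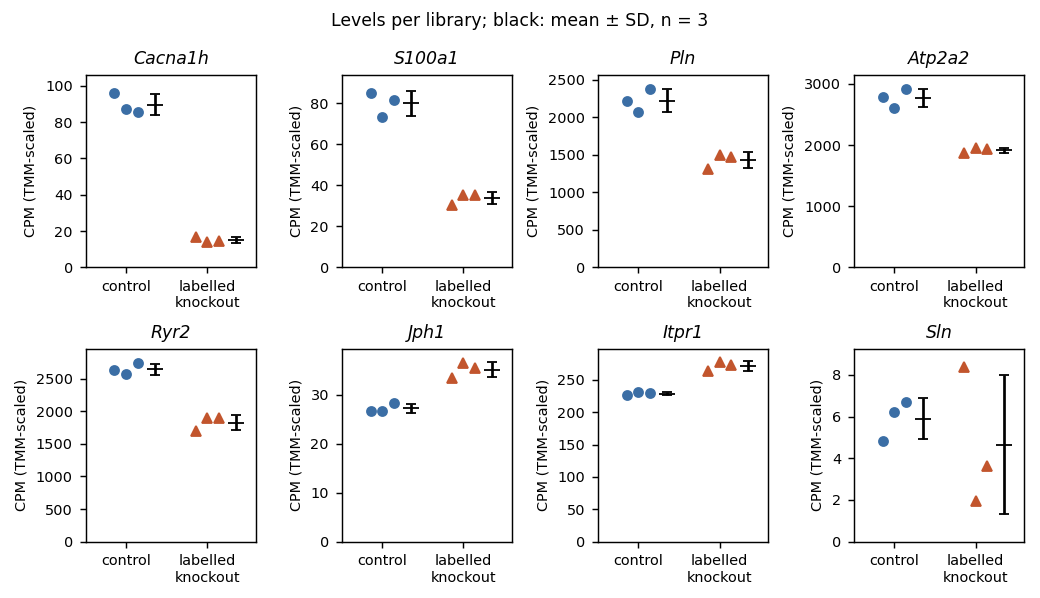
TMM-scaled CPM of 8 calcium handling genes in each library on axes that start at 0; circles are control libraries, triangles labelled knockout libraries, and black marks show mean ± SD (n = 3). Cacna1h, S100a1, Pln, Atp2a2 and Ryr2 are lower and Jph1 and Itpr1 higher in every labelled knockout library than in every control, while the Sln libraries spread from 1.94 to 8.38 CPM.

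The SERCA2 message has splice forms that differ at the 3′ end of the coding sequence, and these are shown because their estimated counts moved differently. The last bases of both coding sequences follow, 5′ to 3′ and without the stop codon. They were read from GENCODE M21 transcripts on the minus strand of mm10, with the 30 shared bases in lower case and the bases of each form alone in capitals. The short form, NM_009722, encodes the 998-residue SERCA2a of heart and slow muscle and crosses an intron within chr5:122454294-122457332. The long form, NM_001110140, encodes the 1044-residue SERCA2b found in most cells and reads on without an intron in chr5:122457154-122457332.
NM_009722: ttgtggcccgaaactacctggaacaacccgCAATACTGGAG
NM_001110140: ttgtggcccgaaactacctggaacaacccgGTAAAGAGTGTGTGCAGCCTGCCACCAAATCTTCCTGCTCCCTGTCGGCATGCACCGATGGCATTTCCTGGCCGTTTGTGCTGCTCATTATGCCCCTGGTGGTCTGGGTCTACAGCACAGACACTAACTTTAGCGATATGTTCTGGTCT

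The short form stood at 2363, 2199 and 2490.3 CPM in control libraries against 1536, 1631 and 1623 CPM in labelled knockout libraries, and fell by 0.56 on the log2 scale (SE 0.0528; adjusted p 0.000394 by edgeR over 21591 transcripts). The long form stood at 119, 116 and 136 CPM and at 143, 126 and 140.1 CPM in that order of groups. Its log2 fold change of 0.14 (SE 0.0741) did not pass (adjusted p 0.238), and its groups overlapped. A further listed transcript, NR_027838, carries a non-coding label but was matched to 1044 residues, the length of the long form. It fell by 0.75 on the log2 scale (SE 0.0578, adjusted p 0.000159 by edgeR), opposite in sign to NM_001110140. Of the estimated counts of the short and long form, NR_027838 left out, the long form held 4.79%, 5.03% and 5.19% in control libraries. In labelled knockout libraries it held 8.49%, 7.19% and 7.95%. The means were 5.00% ± 0.202 and 7.88% ± 0.653 (SD, n = 3), without overlap, and an exact two-sided permutation test gave p = 0.1, the smallest that 3 against 3 libraries allow. This share was taken up after the transcript values were seen. Of all Atp2a2 counts, NR_027838 held 10.9% in controls and 9.45% in labelled knockouts, against 4.46% and 7.13% for NM_001110140. The share therefore does not show how all messages matched to 1044 residues moved. Reads common to both forms were shared out by estimation, and the error of that step is not in these tests.

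Over the members, 92 transcripts were listed and 89 tested. Of these, 22 (24.7%) were lower and 4 (4.49%) higher, against 11.8% and 11.0% of all transcripts tested. No member gene had transcripts called in both directions. Among the Asph transcripts that passed, the greatest falls were those of NM_001177856, which encodes 212 residues, by 0.61 on the log2 scale, and NM_133723, which encodes 207 residues, by 0.52. The long Asph transcript NM_001177849, of 725 residues, fell by 0.19. Some genes that did not pass as a whole had a lower transcript, such as Cacna1c with NM_001255998 (-0.35), Camk2d with NM_001293666 (-0.31) and Slc8a1 with NM_001112798 (-0.16). The listed Atp2a3 transcript NM_001163336 was lower by -2.35 from a mean of 1.54 CPM.

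Calcium leaves the cell through the sodium-calcium exchanger and plasma membrane pumps, and of these 3 genes 1 was higher and none lower. Slc8a1, the exchanger gene, was at 4865, 4591 and 4754 CPM in control libraries against 4261, 4551 and 4478 CPM in labelled knockout libraries. The groups did not overlap, yet the log2 fold change of -0.10 (SE 0.0472) did not pass (adjusted p 0.117 by edgeR), and on the scale of all assigned reads it was 0.05. Atp2b4, a plasma membrane calcium pump, was at 128, 142 and 125 CPM in control libraries against 189, 154 and 166 CPM in labelled knockout libraries. All labelled knockouts were above all controls, and the log2 fold change was 0.38 (SE 0.0700; adjusted p 0.000746 by edgeR). That call was lost with the Y-linked covariate (0.21, adjusted p 0.147 by edgeR). Without the 3 libraries near 0 in Y-linked genes or Xist, which leaves 1 control, the log2 fold change was 0.17. Atp2b1, the more widely expressed pump of this family, had a log2 fold change of 0.04 and did not pass.

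None of the 5 genes of calmodulin and its kinases was called. Calm2 and Calm3 encode the same calcium sensor protein. Calm2 ran from 168 to 173 CPM in the controls and from 169 to 175 CPM in the labelled knockouts, and Calm3 from 245 to 256 CPM and from 243 to 257 CPM. Camk2d, the main cardiac isoform of the kinase that phosphorylates Ryr2 and phospholamban proteins, had a log2 fold change of -0.05 (SE 0.0428; adjusted p 0.413 by edgeR). Camk2a and Camk2g stood at 0.04 and 0.09. The Camk2a transcripts tested encode 189 and 200 residues, against 495 to 529 for those of Camk2g, so the Camk2a value rests on shorter forms. On the scale of all assigned reads Calm2, Calm3, Camk2a and Camk2g passed as higher, at 0.15 to 0.25, around the median of 0.16 of all genes there.

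The IP3 receptors, which release calcium from internal stores on hormonal signals, did not move as a group. Itpr1 was at 226, 231 and 229 CPM in control libraries against 263, 277 and 273 CPM in labelled knockout libraries, with no overlap. It was higher by 0.25 on the log2 scale (SE 0.0374; adjusted p 0.000157 by edgeR). Itpr2, the receptor best known from cardiomyocytes, was at 181, 178 and 187 CPM and at 166, 165 and 140.3 CPM, and was lower by -0.21 (SE 0.0579; adjusted p 0.0103). That call was lost with the Y-linked covariate (-0.18, adjusted p 0.188 by edgeR) and on the scale of all assigned reads (-0.06, 0.540). It was also lost with only the most abundant transcript of each gene (-0.14, 0.342). Without the 3 libraries near 0 in Y-linked genes or Xist, which leaves 1 control, the log2 fold change was -0.22. Itpr3 did not pass, at 0.04.

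In store-operated entry, Stim1, the sensor of reticulum calcium, was at 21.8, 22.5 and 21.04 CPM in control libraries against 17.3, 16.9 and 16.6 CPM in labelled knockout libraries. Each labelled knockout was below each control, with a log2 fold change of -0.36 (SE 0.0666; adjusted p 0.000738 by edgeR), which on the scale of all assigned reads was -0.20 and did not pass (0.0565). The channel it opens, Orai1, was at 11.2 ± 0.710 and 10.2 ± 0.375 CPM (SD, n = 3 per group) and did not pass. Of the mitochondrial uniporter, the pore gene Mcu did not pass, at -0.08 on the log2 scale. Its gatekeeper Micu2 was at 57.1, 56.1 and 60.9 CPM in control libraries against 53.3, 52.8 and 53.0 CPM in labelled knockout libraries, and passed narrowly at -0.13 (SE 0.0495; adjusted p 0.0477 by edgeR). This call held in 3 of 16 alternative settings, and leaving out control replicate 2 was the only omission of a single library that kept it.

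**Figure D4:**
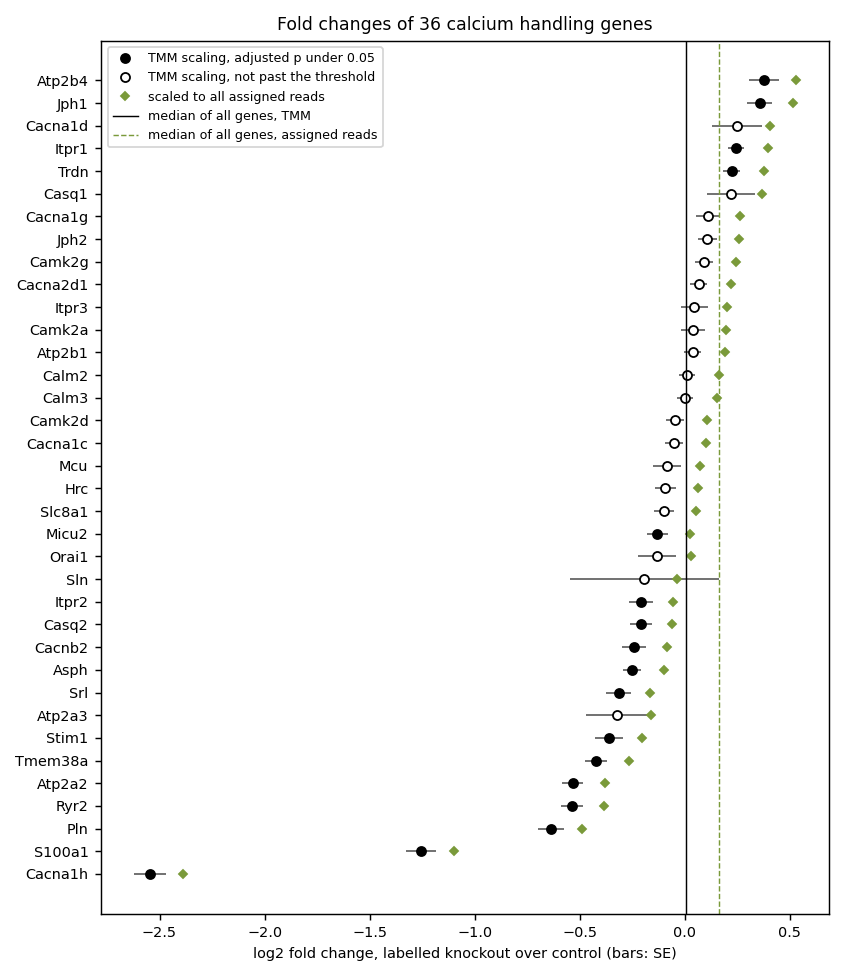
Log2 fold change of each of the 36 calcium handling genes, labelled knockout over control, with SE bars for TMM scaling (filled circles passed the threshold, open circles did not) and green diamonds for scaling to all assigned reads; vertical lines mark the median of all genes tested on each scale. The diamonds lie to the right of the circles throughout, with the median of all genes at 0.01 and at 0.16, and Cacna1h, S100a1, Pln, Ryr2 and Atp2a2 stay lowest on both.

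Ratios of 2 genes within a library do not depend on the scaling between libraries, and 8 were compared as RPKM ratios by exact two-sided permutation tests, for which 0.1 is the smallest possible p. Adjusted over the 8, each p of 0.1 became 0.16. The ratio of Cacna1h to Cacna1g was 1.39, 1.33 and 1.33 in control libraries against 0.228, 0.207 and 0.202 in labelled knockout libraries. The T-type pore with more message thus changed from Cacna1h to Cacna1g on the RPKM scale, with no overlap between the groups (exact p = 0.1). Slc8a1 to Atp2a2, exchanger over pump, was 0.409 ± 0.0172 in the controls and 0.551 ± 0.00669 in the labelled knockouts (SD, n = 3), again without overlap (exact p = 0.1). Ryr2 to Cacna1c went from 2.73 ± 0.109 to 1.95 ± 0.134, and Jph1 to Jph2 from 0.109 ± 0.00106 to 0.130 ± 0.00113, both without overlap (exact p = 0.1).

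Inhibitor over pump, Pln to Atp2a2, was 1.49, 1.49 and 1.52 in control libraries against 1.31, 1.44 and 1.42 in labelled knockout libraries. The groups did not overlap (exact p = 0.1), but the log2 difference of -0.11 became -0.07 without labelled knockout replicate 1. The ratios Sln to Pln (exact p = 1), Casq1 to Casq2 (exact p = 0.2) and Mcu to Micu2 (exact p = 0.7) overlapped. Sln to Pln ran from 0.00590 to 0.0292 in the labelled knockouts alone, and its log2 difference of 0.05 was -0.56 without labelled knockout replicate 1, 0.59 without labelled knockout replicate 2 and -0.09 without control replicate 1.

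**Figure D5:**
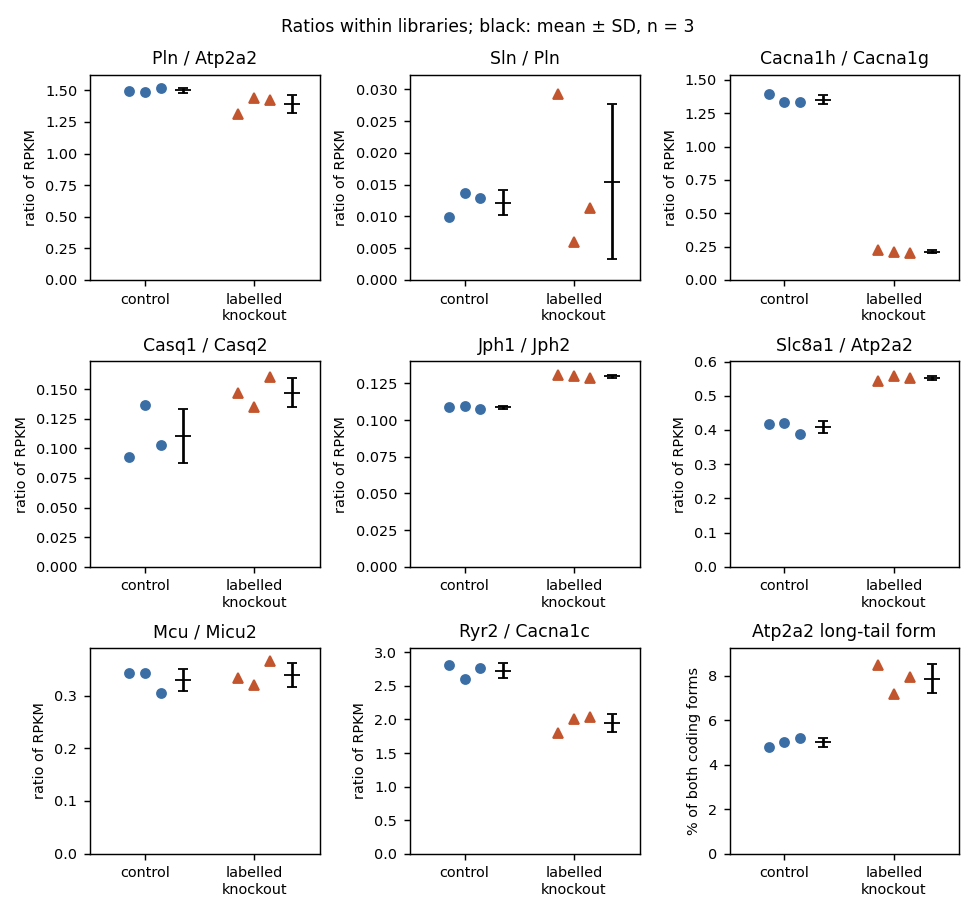
RPKM ratios of 8 gene pairs within each library, and the share of the long-tail Atp2a2 form in percent of NM_009722 and NM_001110140, without NR_027838. Circles are control libraries, triangles labelled knockout libraries, black marks mean ± SD (n = 3), and all axes start at 0. Cacna1h over Cacna1g drops from 1.35 to 0.212 and Slc8a1 over Atp2a2 rises from 0.409 to 0.551 without overlap, while Sln over Pln, Casq1 over Casq2 and Mcu over Micu2 overlap.

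Promoters, taken as 250 bases before to 50 after the annotated start, were found for 24 of the 36 members (30 promoters) in RefSeq sequence of the build GRCm38.p6. The other 12 had no entry and were not searched. Among them were the called genes Asph, Atp2a2, Cacna1h, Itpr1, Jph1, Srl and Trdn. Those of the members with an entry and the greatest change in each direction, S100a1 and Atp2b4, are shown with that of Pln and with that of Casq2, which was added because it holds a motif. The letters AAGGTCA, the half-site that estrogen-related receptors are known to bind, were searched on both strands with TNAAGGTCA, TATAAA, the MEF2 box and the CArG box. A TNAAGGTCA match is also an AAGGTCA match. Capitals mark the match to TATAAA in Pln and to the MEF2 box in Casq2, and S100a1 and Atp2b4 held none of the 5.
S100a1 (chr3:90514281-90514580, minus strand): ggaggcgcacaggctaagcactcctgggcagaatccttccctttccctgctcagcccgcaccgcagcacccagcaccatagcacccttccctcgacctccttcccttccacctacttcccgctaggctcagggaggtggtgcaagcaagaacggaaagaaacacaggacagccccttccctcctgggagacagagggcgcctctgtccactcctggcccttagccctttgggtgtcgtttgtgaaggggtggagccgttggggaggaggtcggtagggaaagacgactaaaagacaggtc
Atp2b4 (chr1:133753698-133753997, minus strand): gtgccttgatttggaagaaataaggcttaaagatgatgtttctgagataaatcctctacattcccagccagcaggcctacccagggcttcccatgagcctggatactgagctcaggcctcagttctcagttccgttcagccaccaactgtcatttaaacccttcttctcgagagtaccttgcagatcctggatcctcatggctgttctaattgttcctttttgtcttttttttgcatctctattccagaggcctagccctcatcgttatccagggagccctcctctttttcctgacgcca
Pln (chr10:53337436-53337735, plus strand): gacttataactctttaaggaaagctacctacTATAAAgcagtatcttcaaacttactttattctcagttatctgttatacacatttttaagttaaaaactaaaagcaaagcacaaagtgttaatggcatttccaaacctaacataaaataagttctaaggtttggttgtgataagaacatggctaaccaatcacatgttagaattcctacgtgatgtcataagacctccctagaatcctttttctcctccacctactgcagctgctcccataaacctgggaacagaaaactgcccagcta
Casq2 (chr3:102086165-102086464, plus strand): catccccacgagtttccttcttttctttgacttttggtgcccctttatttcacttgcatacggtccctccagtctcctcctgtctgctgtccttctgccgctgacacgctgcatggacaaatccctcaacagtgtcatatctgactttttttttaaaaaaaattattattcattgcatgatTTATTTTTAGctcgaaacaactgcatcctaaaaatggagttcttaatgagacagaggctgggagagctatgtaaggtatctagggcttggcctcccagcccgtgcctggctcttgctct

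AAGGTCA was in the promoter windows of 1 of the 24 members searched, Jph2, and in 4.72% of all 32851 promoters of this length. TNAAGGTCA, in 1.28% of all promoters, and the CArG box, in 1.63%, were in none of the 30. TATAAA was in those of Pln, 219 bases before the start, and Cacna1d, against 13.6% of all promoters. The MEF2 box was in that of Casq2, 69 bases before the start and on both strands, against 3.19%. These matches describe letters in these windows.

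Other calcium genes were taken from a list of 98, of which 91 were in the table and 81 were tested. Of these, 26 were higher and 23 lower, or 32.1% and 28.4% against 22.4% and 22.0% of all genes, with a median log2 fold change of 0.07. On the scale of all assigned reads 37 were higher and 15 lower, against 38.6% and 11.8% of all genes. Among surface channel genes, Gem, an inhibitor of L-type channels, was higher by 1.22 on the log2 scale, the auxiliary subunit gene Cacnb3 by 0.73 and the pore gene Cacna1e by 1.00, while the subunit genes Cacng6 and Cacnb4 were lower by -0.88 and -0.60. In the release and store group 5 of 11 were higher and 1 lower. Ryr3, the third ryanodine receptor gene, went from 30.2 to 67.1 CPM, a log2 fold change of 1.17 (adjusted p 2.76e-06 by edgeR), opposite to Ryr2. The reticulum chaperones Calr and Hspa5 were higher by 0.41 and 0.43, and sorcin, Sri, which modulates ryanodine receptors, was lower by -0.27. Of the junction genes, Speg and Cav3 were lower by -0.53 and -0.38.

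The genes of the protein phosphatase known to dephosphorylate phospholamban, and of its inhibitor, were split. The catalytic subunit gene Ppp1cb was higher by 0.31, and Ppp1cc, the inhibitor gene Ppp1r1a and Ppp1ca were lower by -0.34, -0.54 and -0.25. The minor exchanger genes Slc8a3 and Slc8a2 were higher by 0.59 and 0.36, from control means of 2.29 and 5.05 CPM. Of 16 further genes of calmodulin, its kinases and calcineurin signalling, 6 were higher and 2 lower, against 22.4% and 22.0% of all genes. Camk1 at 0.44, Camk2b at 0.84 and Nfatc1 at 0.31 led those higher. Those lower were the calcineurin regulators Rcan2 at -0.79 and Rcan1 at -0.25. In IP3 signalling Itpka, a kinase that phosphorylates IP3, was lower by -2.09 from a mean of 2.30 CPM, the phospholipases Plce1 and Plcg1 by -0.42 and -0.32, and Mrvi1, a receptor-associated substrate of cGMP kinase, was higher by 0.92.

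Among 11 further store-operated genes 5 were higher and 3 lower, against 22.4% and 22.0% of all genes. Trpm7, Saraf and Stim2 were higher by 0.35, 0.34 and 0.35. Stim2, the second reticulum sensor, thus went opposite to Stim1. Of 10 further mitochondrial calcium genes 6 were lower and 1 higher, against 22.0% and 22.4% of all genes. The outer membrane channels Vdac1 and Vdac2 fell from 419 to 253 CPM and from 457 to 284 CPM, Vdac3 fell by 0.35 on the log2 scale, and Micu3, a relative of Micu2, was higher by 0.54.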

How the data were processed

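Total RNA of ventricles was sequenced as ribosomal RNA-depleted libraries with 50 bp single-end reads, per the labels' protocols, which name both a stranded and an earlier kit. TopHat2 2.0, Partek 6.6, DESeq and mm10 are named in the submitters' processing notes, without roles. The use of strand in counting is not given in the sources used here; overlapping and antisense genes may therefore share reads. The deposited table holds estimated counts per transcript and the authors' RPKM. The deposited mapping summary gives read counts and the percent of reads in exons (35.5% to 40.6%), introns and intergenic sequence.

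Estimated counts were summed from 30031 transcripts to 19245 symbols and rounded. Groups were compared with edgeR 4.0.16 (quasi-likelihood test after TMM scaling, minimum count 10, total 15, Benjamini-Hochberg over 14290 genes, two-sided, threshold 0.05); exact permutation tests used SciPy 1.17.1. A count of 3 stands for 0.0918 to 0.234 CPM; such floors cover counting error only. The members, lists and tests were chosen with earlier results of these data known. Values per library are given for members past the threshold and 8 chosen members. Of other calcium genes, up to 3 per direction and role by adjusted p are named, with fold changes or group means; a gene that this rule takes is not reported here. Alternatives tried: DESeq2 1.42.0 and limma-voom, another scaling or filter, a replicate block, a Y-linked covariate, omitted libraries and 1 transcript per gene. Coding ends came from GENCODE M21. The scripts were tested on simulated data.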

Additional observations from a re-analysis of the deposited data

How the results depend on the processing

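Of the 17 calcium genes called, 8 were called in all 16 alternatives (Cacna1h, Ryr2, Tmem38a, Jph1, Atp2a2, Pln, S100a1 and Itpr1). The counts of higher and lower calcium genes, 4 and 13, were 2 and 8 with the Y-linked covariate, 14 and 7 on the scale of all assigned reads (chosen after seeing the data), and 8 higher with library totals only. For all genes, 3198 higher and 3150 lower became 1638 and 1766, 5519 and 1685 on the scale of assigned reads, and 1787 and 1858 without the 3 libraries near 0 in Y-linked genes or Xist, a setting that leaves 1 control, assumed to vary like the other group. Other calcium genes went from 26 to 15 higher with the covariate and from 23 to 15 lower on the assigned-reads scale. Transcripts, 4 higher and 22 lower, became 2 and 10, 10 and 13, and 1 and 7 in the same 3 settings. Micu2 turned to 0.0248 on the assigned-reads scale (adjusted p 0.790 by edgeR). The cause was not tested; no control had as much Y-linked RNA as any labelled knockout, so the covariate partly tracks the groups.

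Leaving out 1 library each gave 2636 to 3060 genes higher and 2683 to 3052 lower, 4 to 5 and 12 to 13 calcium genes, 21 to 26 and 22 to 24 other calcium genes, and 3 to 5 and 16 to 18 transcripts. The replicate numbers did not pair the samples (correlations of deviations -0.01, -0.02 and 0.10), and with a replicate block 4 calcium genes were higher and 12 lower, Micu2 being lost (0.0585). The members with the fewest counts were Sln and Atp2a3, with 29 to 281 and 55 to 145 per library.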
